A study of Eleocharis dulcis with 24 samples.

Results

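Mature corms of cultivated *Eleocharis dulcis* were set against mature corms of wild *E. dulcis* by RNA sequencing, with 3 libraries of each. *E. dulcis*, the Chinese water chestnut, is a sedge, and its corm is the swollen tip of an underground stem. A gene was compared if its TPM (a transcript's length-corrected share of its library) was 1 or higher in 3 or more of these 6 libraries, a rule met by 20612 of the 35975 genes in the deposited table. The other 18 libraries came from the initial, middle and late swelling stages of both origins, again with 3 biological replicates per group per the series' description, and are used here to follow the same genes through earlier stages. All libraries were made from total RNA of corm tissue, and the labels name no plant line, treatment, growing site, harvest date or batch. They do not say whether a replicate is 1 plant or a pool. A difference between origins therefore cannot be told apart from a difference in site, plant line or time of harvest, nor from reads of one origin aligning better to the reference genome.

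A corm stores carbohydrate, mainly starch, in parenchyma cells that divide and enlarge during swelling. At maturity growth has stopped and the corm enters a resting state from which it sprouts in the next season. In well studied storage organs such as the potato tuber, a small number of transcripts for storage and defence proteins can make up much of the messenger RNA. The IDs in the table are not paired with gene names in the sources used here, so no gene below is given a function and no pathway or cell type marker could be looked up. Whether the libraries hold corm tissue of comparable make-up could not be checked for the same reason. In bulk tissue, fewer cells of a type and less RNA per cell cannot be told apart.

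Of the 20612 genes, 15110 reached 1 TPM in all 6 mature libraries. A further 2608 reached it in all 3 cultivated and in no wild library, 1383 in all 3 wild and in no cultivated library, and 1511 showed other patterns. Genes that passed the minimum through 1 origin alone had to differ, so counts over all genes compared include such cases. At the edge of the rule, 4092 genes were at 1 TPM or more in exactly 3 of the 6 libraries and 607, not included, in exactly 2. Their mean levels had medians of 1.66 and 0.72 TPM. IDs with the prefix EdulChr, which carry a chromosome number, made up 19216 of the genes compared, and the other 1396 IDs carry none. A set of 18 genes shared 9 profiles that were equal in all 24 libraries, so the members of each such pair cannot be told apart.

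The replicates lay close together. The median SD of a gene was 0.0842 in cultivated and 0.0804 in wild mature libraries on the log2(TPM + 1) scale. Spearman correlations over the genes compared were 0.991 to 0.992 among cultivated and 0.989 to 0.991 among wild libraries, and 0.601 to 0.611 between origins. Expressed as TPM, 36.4 to 37.8% of the total of a library would have to be moved between genes to turn a cultivated into a wild mature library. The same measure was 2.44 to 3.89% between cultivated replicates and 1.98 to 2.83% between wild replicates. In the other stages it was 43.3 to 46.9% at initial, 51.0 to 51.6% at middle and 55.1 to 55.8% at late swelling, so mature corms of both origins lay closer together by this measure than corms at any of the 3 earlier stages. Without novel1867, the highest gene, the order was kept, with 37.8 to 38.7% at maturity and 42.7% or more at each earlier stage. The depth of the libraries is unknown, because TPM values are scaled to a fixed total, here 999991 to 1000002 over the 24 libraries.

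Both mature transcriptomes were headed by nearly the same few genes, at different levels. The 5 highest genes of each origin shared 4 members, the 10 highest shared 7 and the 100 highest shared 49. The feature novel1867 stood first in both. It had 136519, 125527 and 132854 TPM in cultivated libraries, against 247129, 245288 and 247089 TPM in wild libraries. Every cultivated library lay below every wild one, and the gene took 13.2% of all TPM in cultivated and 24.7% in wild corms. The difference was -0.91 ± 0.07 (log2, SE, limma adjusted p = 2.95e-10), but the call was lost when only the 6 mature libraries entered the fit (adjusted p = 0.461). After the scaling described below it was -1.61 (adjusted p = 6.84e-15). This single gene accounted for 15.5% of the summed TPM difference between the origins, the 10 genes with the largest differences for 29.8% and the 1000 largest for 73.0%.

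EdulChr3G00014480 ranked second in both origins, with 28102, 27026 and 27885 TPM in cultivated libraries, against 49036, 45013 and 45739 TPM in wild libraries. The difference was -0.75 ± 0.26 (log2, SE, limma adjusted p = 0.0127), and -1.46 after scaling (adjusted p = 3.03e-05). At the late stage the order was the other way round, with 3235 ± 55.0 TPM in cultivated and 1155 ± 36.9 TPM in wild corms (SD, n = 3 each). The feature novel1789 had 8323, 6694 and 7941 TPM in cultivated libraries, against 25624, 25535 and 24502 TPM in wild libraries. Its difference of -1.73 ± 0.09 (log2, SE, limma adjusted p = 2.58e-13) again set every cultivated library below every wild one, and it was -2.43 after scaling (adjusted p = 4.45e-16). EdulChr51G00186400 was the most abundant of the genes in excess in cultivated corms, with 22733, 26033 and 21861 TPM, against 12071, 12833 and 13032 TPM in wild libraries. Its difference was 0.89 ± 0.08 (log2, SE, limma adjusted p = 2.28e-09), was 0.19 after the scaling described below (adjusted p = 0.0262), and did not pass when the scaling was made on the 6 mature libraries alone (adjusted p = 0.201).

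A pair of IDs on chromosome 2 that lie next but 1 to each other in number showed how differently such abundant genes behaved. EdulChr2G00006260 was abundant in both origins, with 22699, 20300 and 21317 TPM in cultivated libraries, against 27385, 29253 and 28172 TPM in wild libraries. EdulChr2G00006240 had 20259, 22388 and 20781 TPM in cultivated libraries, against 83.6, 87.1 and 90.0 TPM in wild libraries. The first of them differed by -0.40 ± 0.07 (log2, SE, limma adjusted p = 1.32e-05; 0.116 with only the 6 mature libraries in the fit), and by -1.11 after scaling (adjusted p = 2.37e-12). The second differed by 7.91 ± 0.63 (log2, SE, limma adjusted p = 2.22e-10). On the log2(TPM + 1) scale this was the largest excess in cultivated corms among the genes named by rule. As a ratio of means it was 243-fold, below the 307-fold of EdulChr62G00215070, which had far lower levels.

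**Figure D1:**
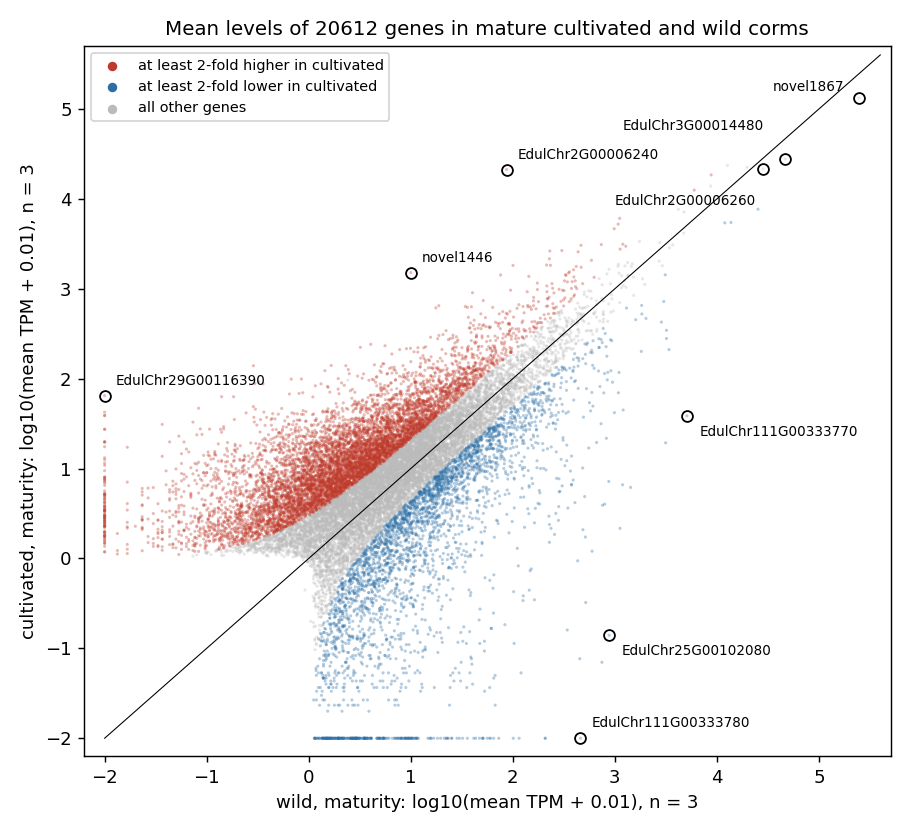
Mean TPM of the 20612 genes in mature cultivated (y axis) and mature wild corms (x axis), both as log10(mean TPM + 0.01) of 3 libraries, with the diagonal as a line of equal levels. Red and blue points are genes called by limma and 2-fold or more apart, and ringed genes are described in the text: novel1867 lies below the diagonal at the top right, EdulChr2G00006240 far above it, and the genes listed at 0 in one origin lie along the left and lower edges.

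The next comparison asked how many genes differed between mature cultivated and mature wild corms. Of the 20612 genes, 18459 passed limma's test at an adjusted p under 0.05, 12094 higher and 6365 lower in cultivated corms. That is 89.6% of them, against 78.0% of all 27050 genes fitted (48.9% higher and 29.0% lower). The 27050 genes also include 6438 that were too low in mature corms to be compared. At least 2-fold differences numbered 7416 higher (36.0%) and 3232 lower (15.7%), against 27.7% and 12.2% of all genes fitted. At least 4-fold differences numbered 2805 higher and 1128 lower, against 10.4% and 4.18% of all genes fitted. Among the 15110 genes at 1 TPM or more in all 6 libraries, 4802 were at least 2-fold higher and 1834 at least 2-fold lower in cultivated corms.

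This balance depended on the scale. In cultivated corms 117 to 133 genes held 50% of all TPM, against 34 to 35 genes in wild corms, where a few genes thus took a larger part of the fixed total. Median-of-ratios scaling, which sets libraries level on the typical gene rather than on the total, moved cultivated against wild mature libraries by 0.71 (log2). The median difference of the genes compared was 0.52 as deposited and -0.06 after scaling. The 2-fold counts were then 5029 higher and 5659 lower, against 19.0% and 22.9% of all genes fitted, so that 69.6% of 2-fold differences were in favour of cultivated corms as deposited and 47.1% after scaling. In a further fit the 10 highest genes were removed and the totals set level again. There 62.0% of 2-fold differences were in favour of cultivated corms, and the median difference was 0.33. Of the 7416 genes at least 2-fold higher as deposited, 5027 were also 2-fold higher and called after scaling. Since this scaling centres the differences near 0, its balance of higher and lower genes is set by its construction, and neither scale shows which balance holds for RNA per corm.

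**Figure D2:**
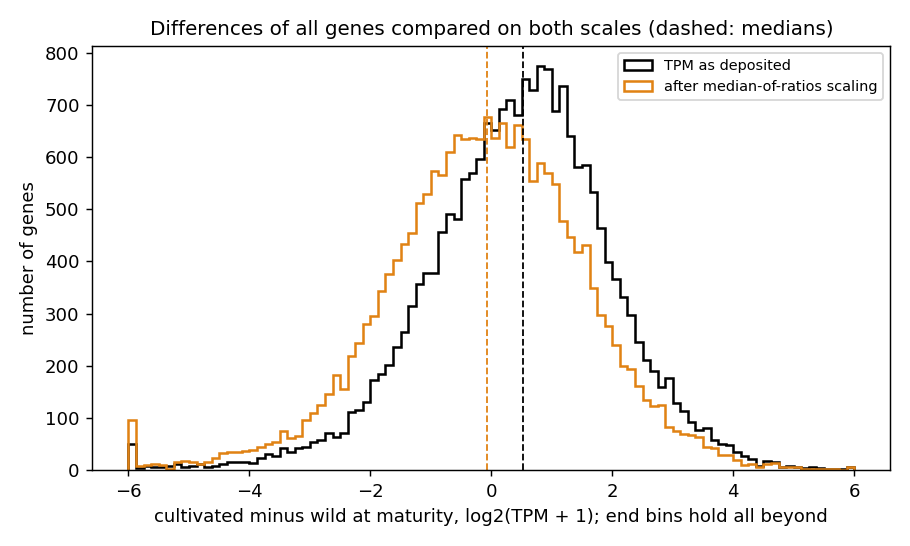
Number of genes (y axis) by difference between mature cultivated and mature wild corms on the log2(TPM + 1) scale (x axis), for TPM as deposited (black) and after median-of-ratios scaling (orange). The dashed medians stand at 0.52 and -0.06, and the whole distribution moves with the scale.

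Shares of higher and lower genes differed between levels of expression. Among the 7527 genes with a mean of 5 to 20 TPM over the 6 libraries, 40.0% were at least 2-fold higher and 13.8% at least 2-fold lower in cultivated corms. Among the 991 genes at 100 to 1000 TPM the shares were 29.8% and 22.0%, and among the 74 genes above 1000 TPM they were 29.7% and 21.6%. Those 74 genes held 44.3% of TPM in cultivated and 53.7% in wild mature corms. After scaling, genes at 100 to 1000 TPM were 18.1% higher and 37.8% lower, and those at 5 to 20 TPM 26.8% and 25.1%. On either scale, the share of genes lower in cultivated corms was larger at 100 to 1000 TPM than at 5 to 20 TPM.

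At the level of whole libraries, the measures below separated the origins without overlap, but 3 against 3 libraries cannot give an exact permutation p below 0.1. A TPM of at least 1 was reached by 19237 to 19277 genes in cultivated and 17815 to 17834 in wild mature libraries. The share of TPM on IDs without the EdulChr prefix was 17.2 ± 0.553% in cultivated and 30.5 ± 0.184% in wild libraries (SD, n = 3 each), and 3.99 ± 0.0485% and 5.89 ± 0.288% without novel1867. The 10 highest genes held 30.1 ± 0.584% of TPM in cultivated and 42.2 ± 0.173% in wild libraries (SD, n = 3 each). For each of these measures the two-sided exact permutation p was 0.1. It was also 0.1 after adjustment over a family of 6, to which the share without novel1867 did not belong. The direction of the first measure turned round at a TPM of at least 0.1, which 23756 to 23784 genes reached in cultivated and 24267 to 24566 in wild libraries.

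The next ranking took genes whose origins did not overlap and whose higher mean was 10 TPM or more. On the log2(TPM + 1) scale, the largest excess in cultivated corms after EdulChr2G00006240 was that of novel1446. It had 1518, 1567 and 1448 TPM in cultivated libraries, against 9.97, 10.7 and 9.39 TPM in wild libraries, a difference of 7.10 ± 0.13 (log2, SE, limma adjusted p = 3.55e-21). It was in excess in cultivated corms at every stage, by 5.79, 6.36 and 8.06 (log2) from initial to late swelling. The next genes were novel1825, EdulChr62G00215070, EdulChr29G00116390 and EdulChr72G00244030. Their means lay between 64.6 and 92.0 TPM in cultivated corms and at or below 0.347 TPM in wild corms, with differences of 6.04 to 6.15 (log2) and limma adjusted p of at most 9.63e-23. EdulChr29G00116390 was listed at 0 in all 12 wild libraries, so it has no ratio of means. That ratio was 151-fold for novel1446, against 294-fold for novel1825, 307-fold for EdulChr62G00215070 and 252-fold for EdulChr72G00244030. The order of these genes thus depends on the pseudocount. EdulChr72G00244030 rose through cultivated development, with 2.88 ± 0.10, 49.8 ± 1.19, 63.5 ± 0.892 and 87.3 ± 2.22 TPM from initial to maturity (SD, n = 3 each).

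On the log2(TPM + 1) scale, the 6 largest deficits in cultivated corms were larger than the 6 largest excesses. Sizes in both sets depend on the pseudocount where the lower level is near 0. EdulChr25G00102080 had 0.17, 0.09 and 0.13 TPM in cultivated libraries, against 865, 878 and 890 TPM in wild libraries. Its difference was -9.60 ± 0.04 (log2, SE, limma adjusted p = 2.04e-30), and values this close to 0 make it depend on the pseudocount. EdulChr12G00052500 had 0.18, 0 and 0 TPM in cultivated libraries, against 715, 742 and 779 TPM in wild libraries. EdulChr66G00225550 had 0.2, 0 and 0 TPM in cultivated libraries, against 463, 453 and 442 TPM in wild libraries. EdulChr70G00237700, EdulChr111G00333780 and EdulChr111G00333760 completed the set, with cultivated means of at most 2.15 TPM and wild means of 517, 460 and 1122 TPM. At the initial stage the means of these 6 genes ran from 0.953 to 53.1 TPM in cultivated corms and were 10.6 TPM or more in wild corms.

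A total of 12 genes were listed at 0 in the 3 mature wild libraries while each mature cultivated library had 10 TPM or more, and 37 genes showed the opposite pattern. Those found in cultivated corms had a median of 23.6 TPM and a highest mean of 64.6 TPM, against 29.9 and 460 TPM for those found in wild corms. Earlier libraries, which the rule did not use, showed how lasting the zeros were. Of the 37 genes at 0 in mature cultivated corms, 25 had reached 1 TPM in at least 1 earlier cultivated library and 3 were at 0 in all 9. Of the 12 genes at 0 in mature wild corms, 5 had reached 1 TPM in an earlier wild library and 4 were at 0 in all 9. With no counts given, a listed 0 carries no limit of detection.

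On the cultivated side novel3471 was among the highest of these, with 42.6, 46.1 and 38.3 TPM in cultivated libraries and 0 in each wild library. EdulChr3G00014860 had 39.4, 38.8 and 38.6 TPM in cultivated libraries and 0 in each wild library. It was a late-stage gene in cultivated corms, at 264 ± 11.7 TPM at late swelling (SD, n = 3), and never passed a mean of 0.0367 TPM in wild corms. On the wild side EdulChr41G00155670 and EdulChr41G00155700 followed EdulChr111G00333780, both listed at 0 in each cultivated library and at 220, 208 and 195 TPM in wild libraries. Their values were equal in all 24 libraries, so they may stand for 1 source of reads.

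Most differences at maturity had been there before. Of the 7416 genes at least 2-fold higher in mature cultivated corms, 71.6% were also at least 2-fold higher and called at late swelling, 48.5% at middle and 43.1% at initial. Over all genes compared, 39.3, 22.1 and 22.9% were higher in that way at the same stages. Of the 3232 genes at least 2-fold lower, 68.3% were also lower at late, 74.8% at middle and 54.2% at initial, against 18.7, 31.0 and 17.6% of all genes compared. Of all genes fitted, 31.9% were higher and 22.3% lower at late, 17.2% and 37.9% at middle, and 21.1% and 20.2% at initial. These stages share no library with the mature comparison. Differences that were 2-fold and of 1 direction from initial swelling through maturity were found in 2101 genes in favour of cultivated and 1284 in favour of wild corms. At maturity alone, with no 2-fold difference in that direction at any earlier stage, were 1413 genes higher (19.1%) and 372 lower (11.5%). After scaling, which moved the median mature difference toward lower in cultivated corms, these numbers were 942 and 1150. Differences of 1 direction from initial swelling through maturity were then found in 1364 genes in favour of cultivated and 1951 in favour of wild corms. The balance of these lasting differences thus turned round with the scale. Of the 5029 genes then at least 2-fold higher, 59.3% were also higher at late, 66.8% at middle and 36.8% at initial. Of the 5659 lower genes, 65.4% were also lower at late, 59.1% at middle and 49.6% at initial. The shares over all genes compared were 23.6, 27.4 and 16.3% higher and 27.5, 24.9 and 21.2% lower. Which earlier stage shared most of these differences thus depended on the scale.

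The size of a difference was tested against that of the late stage with limma's interaction contrast. Of the 20612 genes, 16426 passed, that is 79.7%, against 76.5% of all genes fitted. Among the 7416 genes at least 2-fold higher in mature cultivated corms, the excess was larger at maturity than at late swelling in 3923 and smaller in 1931. Among the 3232 lower genes the deficit was larger at maturity in 1296 and smaller in 1347. After scaling, the excess was larger in 3290 and smaller in 823 of 5029 higher genes, and the deficit larger in 2812 and smaller in 1918 of 5659 lower genes. Genes chosen for a difference at maturity are favoured to have the larger one there, and over all genes compared the contrast was positive in 8400 and negative in 8026 of those that passed. Against the mean of the 3 earlier stages, 16873 genes passed (81.9%, against 80.7% of all genes fitted).

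A small group turned round between late swelling and maturity. A total of 204 genes were at least 2-fold higher in cultivated corms at maturity and at least 2-fold lower at late swelling, and 81 genes did the opposite. Their difference between the stages is fixed by this choice and is given as a description. After scaling there were 215 and 121 such genes, of which 97 and 38 were in the group on both scales.

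EdulChr2G00008970 had the largest turn in favour of cultivated corms. It had 88.9, 89.1 and 90.8 TPM in cultivated mature libraries, against 5.53, 6.15 and 7.54 TPM in wild mature libraries. At late swelling the means were 8.49 ± 0.479 TPM in cultivated and 120 ± 3.08 TPM in wild corms (SD, n = 3 each). The gene thus returned in cultivated corms to about its initial level of 73.5 ± 3.60 TPM, while in wild corms it was lower at maturity than at late swelling, and the difference at maturity minus that at late swelling was 7.30 ± 0.10 (log2, SE). EdulChr69G00235750 had 399, 397 and 420 TPM in cultivated mature libraries, against 88.9, 88.6 and 91.8 TPM in wild mature libraries. At late swelling it averaged 111 ± 0.458 TPM in cultivated and 1976 ± 69.7 TPM in wild corms (SD, n = 3 each). EdulChr18G00073200 turned by 6.98 ± 0.11 (log2, SE), with 113 ± 6.0 TPM in cultivated and 31.9 ± 1.66 TPM in wild mature corms (SD, n = 3 each).

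In the opposite direction, EdulChr26G00104780 had 0.81, 0.86 and 0.9 TPM in cultivated mature libraries, against 25.7, 25.3 and 26.4 TPM in wild mature libraries. At late swelling it stood at 13.9 ± 0.938 TPM in cultivated and 0.377 ± 0.13 TPM in wild corms (SD, n = 3 each). In wild corms the gene was therefore high at initial (76.6 TPM) and middle swelling (114 TPM), nearly absent at late swelling and present again at maturity. EdulChr13G00054870 had 4.46, 4.8 and 4.58 TPM in cultivated mature libraries, against 68.8, 64.8 and 67.4 TPM in wild mature libraries. It was low in wild corms at middle and late swelling, and at late swelling cultivated corms had 12.2 ± 0.366 TPM and wild corms 0.647 ± 0.144 TPM (SD, n = 3 each). EdulChr98G00308230 had a different course. In cultivated corms it stood at 57.6 ± 3.21 TPM at late swelling and 43.8 ± 5.90 TPM at maturity, and in wild corms at 2.03 ± 0.606 TPM and 203 ± 8.99 TPM (SD, n = 3 each).

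**Figure D3:**
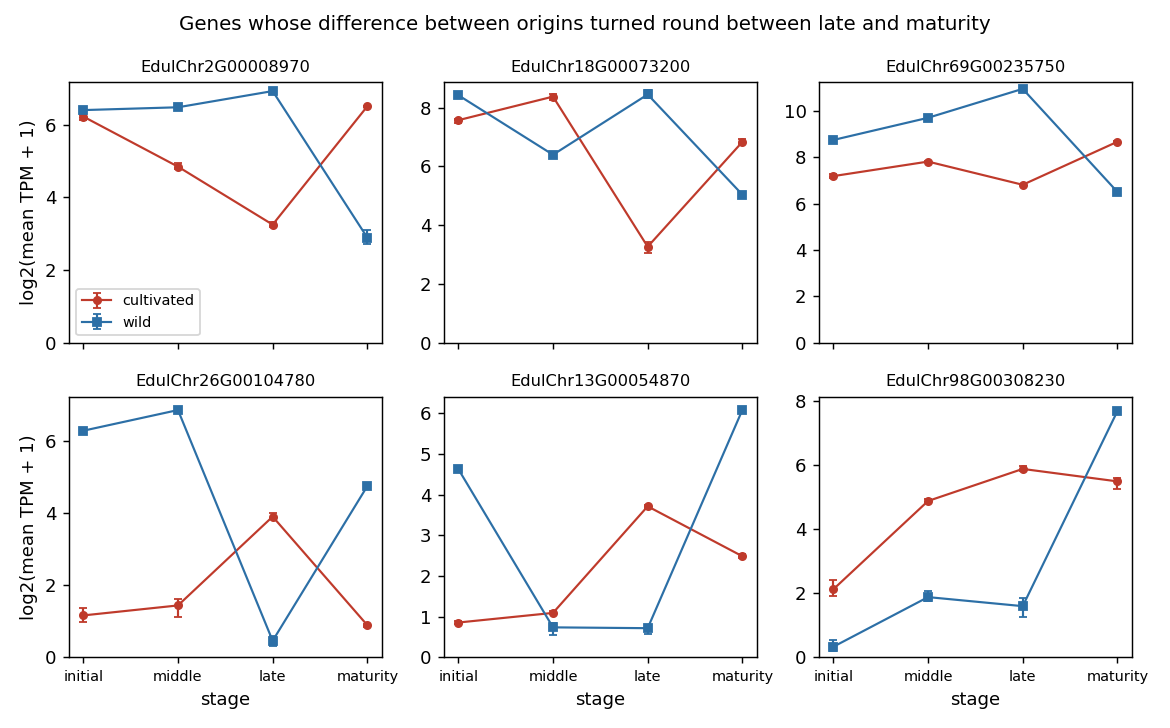
Stage profiles of the 6 genes with the largest turn between late swelling and maturity, as log2(mean TPM + 1) of 3 libraries per point (y axis) over the 4 stages (x axis), cultivated in red circles and wild in blue squares, with bars from the lowest to the highest library. In the upper row cultivated lies above wild at maturity and below it at late swelling, and in the lower row the order is the opposite.

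Genes far apart at maturity were then followed in the origin in which they were low. Of the 2805 genes at least 4-fold higher in mature cultivated corms, 776 (27.7%) had reached 0.5 times that level or more as a stage mean earlier in wild corms, of which 416 were highest there at the middle stage. Of the 1128 genes at least 4-fold lower in cultivated corms, 463 (41.0%) had reached 0.5 times the mature wild level earlier in cultivated corms, and 413 of these were highest there at the initial stage. Over all genes compared, the same was true of 73.8% of those higher in cultivated and 84.3% of those lower in cultivated mature corms. Genes that differ little meet this bound near their own mature level in the lower origin. The rule thus favours these larger shares, and the smaller ones of genes 4-fold apart are no finding by themselves. When the full mature level was required, 276 (9.84%) and 267 (23.7%) genes had reached it.

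Genes that lie next to each other in ID order were compared next, since IDs carry a running number along each chromosome. Differences at maturity of adjacent IDs had a Pearson correlation of 0.12 over 12006 pairs, against 0.058 for IDs 2 apart and -0.0093 for IDs 50 apart. These values are across genes, which are not independent replicates. Where both members of an adjacent pair were at least 4-fold apart, 73.2% of 541 pairs had the same direction, against 57.4% of 390 pairs at 50 IDs apart. Stretches of 3 or more consecutive IDs that were each at least 4-fold apart in 1 direction numbered 29 higher and 12 lower in cultivated corms. They were counted on TPM as deposited, where 2805 genes were at least 4-fold higher and 1128 lower. After scaling 1792 were higher and 2320 lower, so the balance of the stretches is no finding by itself. Neighbouring copies of 1 gene can share reads, and how the authors' counting treated such reads is not given in the sources used here.

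The longest stretch higher in cultivated corms held 7 IDs, EdulChr3G00016960 to EdulChr3G00017020, with differences of 2.14 to 3.95 (log2). Its most abundant member, EdulChr3G00017020, had 26.3 ± 1.59 TPM in cultivated and 1.93 ± 0.0764 TPM in wild mature corms (SD, n = 3 each). On the log2(TPM + 1) scale, EdulChr3G00016990 had the largest difference of the stretch. Its levels were 16.7 ± 0.801 TPM in cultivated and 0.147 ± 0.0473 TPM in wild mature corms (SD, n = 3 each). As a ratio of means this was 114-fold, and EdulChr3G00016960 had a ratio of 449.5-fold at lower levels. EdulChr3G00017000 varied most among cultivated libraries, at 8.79 ± 3.38 TPM (SD, n = 3), and was listed at 0 in cultivated corms at the initial stage.

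The longest stretches lower in cultivated corms held 5 IDs each and lay on chromosomes 12, 78 and 111. On chromosome 12, EdulChr12G00052480 to EdulChr12G00052520 differed by -9.46 to -2.92 (log2). Its most abundant member, EdulChr12G00052480, had 210 ± 11.6 TPM in cultivated and 3384 ± 128 TPM in wild mature corms (SD, n = 3 each). On chromosome 111, EdulChr111G00333740 to EdulChr111G00333780 differed by -8.85 to -4.49 (log2). EdulChr111G00333770 stood out there by its level, with 38.6 ± 5.99 TPM in cultivated and 5076 ± 71.5 TPM in wild mature corms (SD, n = 3 each). On chromosome 78, EdulChr78G00260900 to EdulChr78G00260940 differed by -6.67 to -3.17 (log2), and the first of them was listed at 0 in mature cultivated corms and had 101 ± 2.02 TPM in wild ones (SD, n = 3 each).

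The 15 genes of these 3 stretches shared a course in wild corms that the rule did not use. In each of the 15, the wild mean at middle swelling, with 1 TPM added, was at most 0.5 times that at both initial and late swelling, and in none was this so in cultivated corms. EdulChr111G00333770 shows it, with means of 197, 543, 3.74 and 38.6 TPM in cultivated corms from initial swelling to maturity, against 1218, 44.2, 3594 and 5076 TPM in wild corms. At middle swelling cultivated corms had the higher level. Such a dip in wild corms was found in 186 of the 1128 genes at least 4-fold lower in cultivated mature corms (16.5%), in 16 of the 2805 at least 4-fold higher (0.570%) and in 497 of all 20612 genes (2.41%). In cultivated corms a dip of that size was found in 50 (4.43%), 30 (1.07%) and 977 (4.74%) of the same genes. With 1 TPM added, a gene near 0 in an origin cannot show a dip there. The genes were chosen to be low at maturity in the other origin, so the contrast between origins is in part set by that choice. The dip was defined after the values of these stretches had been seen, and no test was made of it.

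**Figure D4:**
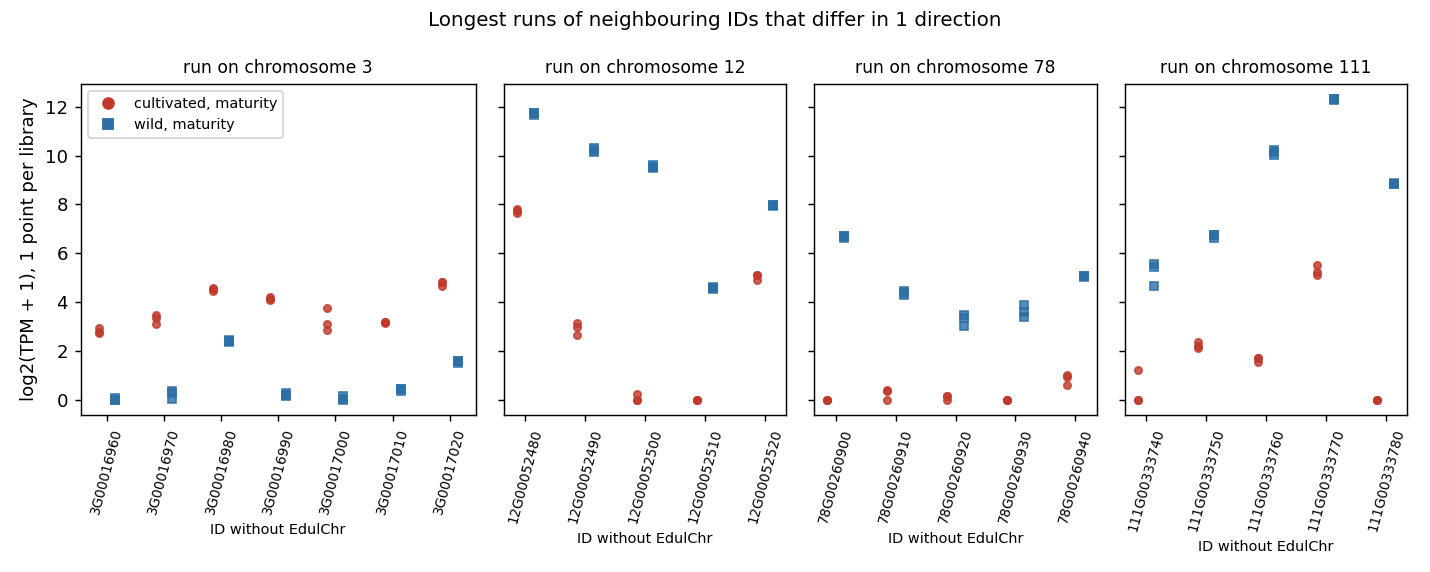
Levels in single mature libraries, as log2(TPM + 1) (y axis), of the genes in the longest stretches of neighbouring IDs (x axis), with cultivated libraries as red circles and wild libraries as blue squares. In the stretch on chromosome 3 all cultivated points lie above the wild ones, and in those on chromosomes 12, 78 and 111 all lie below.

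Across the 106 chromosome numbers with at least 100 genes compared, the median difference ran from -0.85 to 0.97 (log2). Chromosome 47 was singled out after these values had been seen, so its values are given with no test. Its 153 genes had a median of -0.85, against 0.55 for genes of all other chromosomes and 0.17 for chromosome 20, the next lowest. At least 2-fold lower in cultivated corms were 62 of them (40.5%, against 15.0% elsewhere), and at least 2-fold higher were 17 (11.1%, against 36.7% elsewhere). After scaling the median was -1.46, against -0.03 elsewhere.

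The shift was spread along chromosome 47 and over its libraries. In 6 segments of 25 or 26 genes in ID order, the median at maturity minus that of the other chromosomes was -1.75 to -0.86. For the 57 genes with a mean of at least 10 TPM it was -1.49, so the shift was not limited to low values. Genes of chromosome 47 held 0.297, 0.301 and 0.292% of the TPM on EdulChr IDs in cultivated mature libraries, against 0.843, 0.817 and 0.826% in wild mature libraries. The same chromosome was lowest of the 106 at each stage, and its median minus that of the others was -0.87, -0.95, -1.03 and -1.39 from initial swelling to maturity. No cause of these values was tested.

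**Figure D5:**
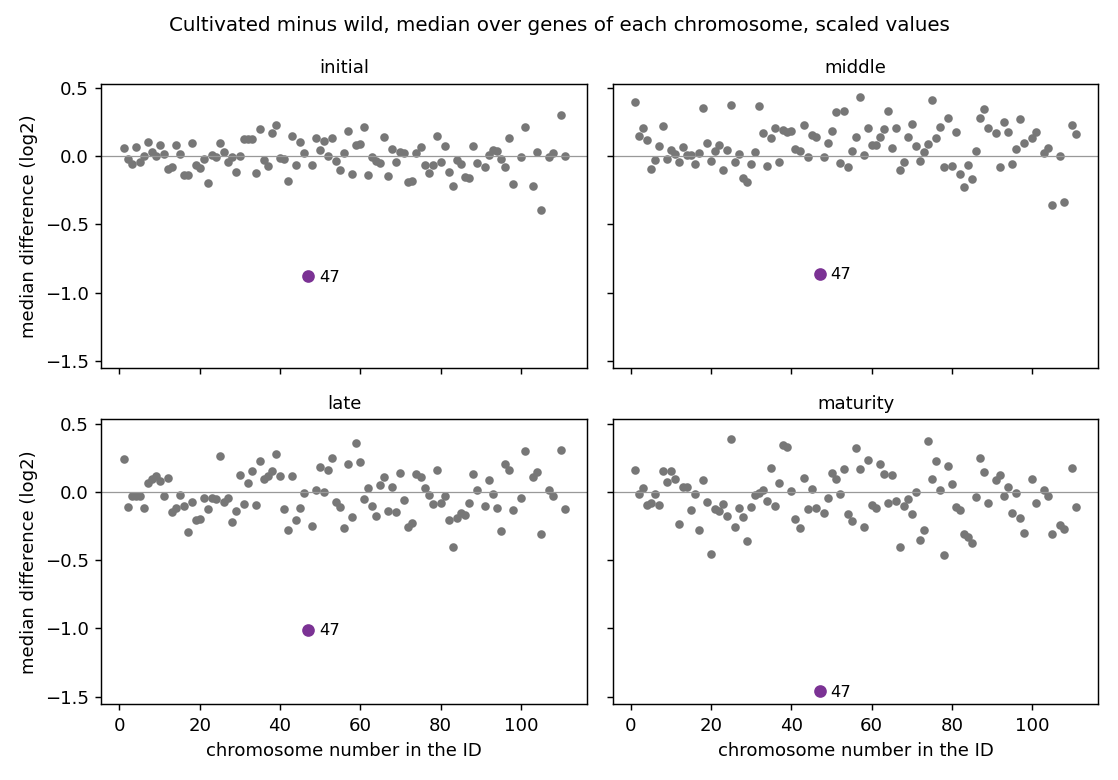
Median difference between cultivated and wild corms per chromosome number (log2, scaled values, y axis) against the number in the ID (x axis), 1 panel per stage, for chromosomes with at least 100 genes compared. Chromosome 47, in purple, is the lowest point in each panel, at -1.46 at maturity.

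Genes at like levels in both origins were looked for by interval. Of 8470 genes with a mean of at least 10 TPM, 1550 (18.3%) had a 95% interval of the difference within 0.5 of 0 on the log2 scale. After scaling there were 1598, but only 160 genes (1.89%) met the bound on both scales, so likeness rested on the choice of scale for most of them. The most abundant was EdulChr70G00237910, with 22846, 21267 and 23156 TPM in cultivated libraries, against 19471, 20017 and 19488 TPM in wild libraries. Its difference of 0.19 ± 0.06 (log2, SE, limma adjusted p = 0.0108) was -0.52 after scaling (adjusted p = 1.76e-07). EdulChr5G00022430 had 4157 ± 110 TPM in cultivated and 4713 ± 115 TPM in wild mature corms (SD, n = 3 each). EdulChr108G00328120 had 3078 ± 49.1 TPM in cultivated and 3676 ± 38.2 TPM in wild mature corms (SD, n = 3 each). After scaling these differences were -0.89 for EdulChr5G00022430 (log2, limma adjusted p = 2.32e-13) and -0.96 for EdulChr108G00328120 (adjusted p = 1.07e-12), so their likeness holds for TPM as deposited. At late swelling EdulChr108G00328120 stood at 9101 ± 266 TPM in cultivated and 1891 ± 19.6 TPM in wild corms, and EdulChr5G00022430 at 1303 ± 37.1 TPM in cultivated and 6582 ± 392 TPM in wild corms (SD, n = 3 each).

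IDs without the EdulChr prefix were less often higher in cultivated corms in these counts. Of the 1396 such genes, 397 (28.4%) were at least 2-fold higher and 308 (22.1%) at least 2-fold lower, against 36.5% and 15.2% of the 19216 genes with the prefix. After scaling the shares were 21.8% and 33.3%, against 24.6% and 27.0%. Mean levels had a median of 2.79 TPM without and 7.8 TPM with the prefix, and the 2 kinds were not compared at like levels.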

How the data were processed

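The series' description names the DNBSEQ-T7 as the sequencer of the 24 corm libraries. The submitters' processing notes name HISAT2 2.0.4, StringTie 2.1.6 and DESeq2, with no role given, while build, annotation and strand setting were not given in the sources used here. The authors deposited TPM values per gene, with 2 decimals; depth is unknown, and a fixed total makes each value a share of its library. No column was left without a sample.

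Groups came from the sample titles. Values were analysed as log2(TPM + 1) with limma 3.58.1 (R 4.3.3; 8 group means, trended variance) over the 27050 genes with 1 TPM or more in 3 or more of 24 libraries. P-values were two-sided and Benjamini-Hochberg adjusted over these genes, with a threshold of 0.05; 2-fold means 1 and 4-fold 2 on this scale, which understates changes of low genes. Scaled values were divided by median-of-ratios size factors. Library measures had exact permutation tests. The scripts were tested on simulated data.

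Named genes were, among genes compared, the 6 largest differences each way (called, no overlap, higher mean of 10 TPM or more), the 5 highest means per origin, the 3 largest turns each way between late swelling and maturity, the 3 highest each way listed at 0 in 1 origin, the 3 highest alike, and the longest runs of IDs. Genes and lists were chosen with earlier results of these data known.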

Additional observations from a re-analysis of the deposited data

Results flagged for a closer look

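The difference between cultivated and wild corms at maturity was tested against that at late swelling for the 49 genes named by rule, and 39 of them passed limma's interaction contrast. The values below are the maturity difference minus the late difference (log2), so a positive value means that cultivated corms stood higher relative to wild corms at maturity than at late swelling. Among all genes fitted 76.5% passed this contrast, so passing it does not set these genes apart.

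Among the most abundant genes, the difference moved for novel1867 by 2.40, novel1789 by 2.06, EdulChr70G00237910 by 0.47, EdulChr51G00186400 by -2.67, EdulChr3G00014480 by -2.24 and EdulChr2G00006260 by -2.18. The genes alike at maturity moved too, EdulChr5G00022430 by 2.15 and EdulChr108G00328120 by -2.52. Of the genes with the largest excess in cultivated corms or listed at 0 in wild corms, the difference moved for novel1825 by 1.12, EdulChr62G00215070 by 1.21, EdulChr72G00244030 by 1.43, novel1446 by -0.96, EdulChr29G00116390 by -1.20, novel3471 by -0.55 and EdulChr3G00014860 by -2.73. Of the genes with the largest deficit it moved for EdulChr25G00102080 by 1.28, EdulChr12G00052500 by 0.59, EdulChr70G00237700 by 1.28 and EdulChr111G00333760 by 1.44.

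The genes chosen for their turn have values that the choice fixes, given as a description, EdulChr2G00008970 by 7.30, EdulChr18G00073200 by 6.98, EdulChr69G00235750 by 6.30, EdulChr26G00104780 by -7.29, EdulChr13G00054870 by -6.60 and EdulChr98G00308230 by -6.49. In the stretch higher in cultivated corms the difference moved for EdulChr3G00016960 by -0.47, EdulChr3G00016980 by -0.59, EdulChr3G00016990 by 0.37 and EdulChr3G00017010 by -0.45. In the stretches lower in cultivated corms it moved for EdulChr12G00052480 by 5.69, EdulChr12G00052510 by 2.99, EdulChr12G00052520 by 4.07, EdulChr78G00260900 by 1.56, EdulChr78G00260910 by 2.77, EdulChr78G00260920 by 3.47, EdulChr78G00260930 by 1.29, EdulChr78G00260940 by 3.23, EdulChr111G00333750 by -0.35 and EdulChr111G00333770 by 2.55.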

How the results depend on the processing

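The counts rested mainly on the scale and on the minimum level. Median-of-ratios scaling gave 9606 genes lower, 5659 at least 2-fold lower, and 1792 higher and 2320 lower by at least 4-fold. Scaling over the 6 mature libraries alone, chosen after seeing the data, gave 4899 and 5124 at 2-fold and 1600 and 1862 at 4-fold. With a mean of at least 5 TPM required, fewer genes were tested and 11378 were called, 7386 higher and 3992 lower, with 4634 and 1931 at 2-fold, 124 turned in favour of cultivated corms, and 10382 and 10626 passing the contrasts with the late stage and with all earlier stages. A pseudocount of 0.1 gave 4609 and 1992 at 4-fold and 332 and 182 turned genes, and removal of the 10 highest genes gave 133 turned against cultivated corms. The cause was not tested for these shifts.

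EdulChr70G00237910 changed direction after scaling, to -0.52 over 24 and -0.44 over 6 libraries. The difference in genes detected turned to -691 at 0.1 TPM. Looser or stricter definitions gave 57 genes under 0.1 TPM in cultivated and 23 in wild corms, 276 and 267 genes that had reached the full mature level earlier, and 3549 genes alike within 1.

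Leaving out each mature library in turn gave 18213 to 18241 called, 11944 to 11998 higher and 6230 to 6295 lower, 7354 to 7494 and 3203 to 3255 at 2-fold, 2793 to 2837 and 1120 to 1154 at 4-fold, 16158 to 16195 and 16528 to 16586 for the contrasts, 1468 to 1508 alike, and 201 to 207 and 80 to 88 turned. All 55 values of named genes kept direction and call in these 6 fits.

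Same-numbered mature libraries did not deviate together (correlations -0.0284, -0.0429 and -0.107), so no pairing by number was seen in the values. This cannot tell whether same-numbered samples were collected or handled together. A replicate block gave 18452 called, 7416 and 3232 at 2-fold, and 16398 and 16849 for the contrasts. Depth is unknown, so no limit could be set for values listed at 0.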
